A study of Homo sapiens and Mus musculus with 21 samples.

Results

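Respiratory complex I, or NADH:ubiquinone oxidoreductase, is the largest enzyme of the mitochondrial respiratory chain. Its members here were 36 nuclear genes, given as a list of names, out of 20056 protein-coding genes of the RefSeq table for GRCh38. All 36 were found in that table by symbol. Read counts could be tied to 10 of the 36, because only those stand in the authors' efficiency table beside their Ensembl identifiers. None of the 36 is among the 666 genes of the deposited SLAM-seq table, so their stability ratios are not analysed here. The m6Am regions and the m6A sites were looked up for all 36 by position.

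Complex I takes electrons from NADH in the matrix (the N module), passes them along iron-sulfur clusters to ubiquinone (the Q module), and pumps protons through a membrane arm. Around the core, accessory subunits hold the arms together, and the genes of both kinds lie in the nucleus apart from those of the proton-pumping core, which are in mitochondrial DNA. Transcripts that begin with adenosine can carry m6Am, an adenosine methylated on its ribose and on its base, at the first position after the cap. PCIF1 is the cap-bound enzyme that puts on the base methyl group, whereas m6A inside transcripts, mostly within the DRACH sequence, is made by another complex.

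The study used HEK293T, a transformed human embryonic kidney line, without PCIF1 (PCIF1 KO) or wild type (WT). Ribosome-protected fragments and their input RNA were sequenced in 3 KO and 2 WT libraries each. In miCLIP, an antibody to N6-methyladenosine is crosslinked to RNA and leaves substitutions beside methylated adenosines, and 2 KO libraries and 1 WT library of HEK293T were used. Another 2 miCLIP libraries of WT mouse embryonic fibroblasts were not used here. The labels give no treatment for the libraries used here. They state neither the number of KO clones nor whether replicates were separate cultures, so p-values cover only library-to-library spread, in part perhaps technical.

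Input libraries held 4511687 to 5842630 counts in KO and 5386307 to 5960674 in WT. Over the listed genes, fragment libraries held 46193 to 124580 counts in KO and 17665 and 61816 in WT, so that 3 counts were worth 24.1 to 64.9 CPM in KO and 48.5 to 170 CPM in WT. Among the input libraries WT replicate 1 was the outlying one: KO lay at 9.88 to 16.7 and WT replicates 1 and 2 at -40.3 and 2.17 on the main axis of variation (41.6% of the variance). Results are therefore also given against each WT library apart. PCIF1 itself could not be tied to a row of the count tables and its counts are not analysed here; its span held 1 m6A site in each KO list and 2 in the WT list, which does not check the genotype. Of the HEK293T markers, IRS4 had 58, 60 and 69 sites in KO replicates 1 and 2 and WT, and VIM had 3, 2 and 4. LIN28B had 2, 9 and 3, NEFL 0, 3 and 2, NEFM 0, 0 and 5, and PAX2 0, 1 and 0, but NEFH, KRT8 and KRT18 had none. Of the 11 fibroblast, blood and liver markers, COL1A1 alone had a site, in WT.

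Most complex I subunit genes had a putative m6Am region near their start. The authors' strict list of putative m6Am regions was searched within 50 nt of each gene start on the same strand. The annotated starts of the members with the highest scores and a promoter entry are shown first (NDUFS5 has none), then 2 inner starts that matter for the count, and last a pair of members with no region. In each stretch of 30 bases of RefSeq (GRCh38.p14) the capital marks the annotated first base of the transcript.
NDUFS1 at chr2:206159430-206159459, minus strand: ccaggcccggctgacAgagttagccgaggc
NDUFA9 at chr12:4649099-4649128, plus strand: gtgctgtcgtgggggAttgtgggaaaagat
NDUFA7 at chr19:8321361-8321390, minus strand: ccggctgcgcccttcAgtatcgcggacgga
NDUFAB1 at chr16:23596302-23596331, minus strand: tccggaggcggcggcGcagtgcatcctggg
NDUFB11 at chrX:47144688-47144717, minus strand: tctttccccgcccctGagaccctgcagcac
NDUFC1 at chr4:139302463-139302492, minus strand: cctcatccctactccAgaaacgagaacaac
NDUFB2 at chr7:140696693-140696722, plus strand: gaagtaggcaggggcGaggcggctggggac
NDUFS7 at chr19:1383892-1383921, plus strand: cggacctcagaggttGtctgaaggccgagg

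A region lay within 50 nt of the start in 21 of 36 members (58.3%, exact interval 40.8 to 74.5%), against 8.89% of all protein-coding genes. Nuclear genes of respiratory complexes II to V had a region in 26 of 38 (68.4%, exact interval 51.3 to 82.5%), and complex I assembly factors in 10 of 20 (50%, exact interval 27.2 to 72.8%). The intervals of these lists overlap, and the difference between them was not tested. The region covered the start itself in 18 of the 21 members (85.7%), a share near that of all protein-coding genes with a region (84.9%). Each of the 21 had a single region near its start. Regions are a single list with no replicate, called from reads. The RNA level of 26 members is not analysed here, and the part of abundance in these shares was not tested.

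By module, a region was found in 7 of 9 genes of the N module, in 3 of 6 of the Q module and in the gene of the carrier protein NDUFAB1. The proximal membrane arm had one in 4 of 9 genes and the distal membrane arm in 6 of 11. The authors' score, which is used only to rank regions and whose scale is not stated, had a median of 3.39 over the 21 members, against 2.90 over all 2360 regions. In the N and Q modules every member with a region except NDUFA2 was above that median, and 17 of the 21 members were above it in all.

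In the N module the highest member was NDUFS1, the largest core subunit, which carries iron-sulfur clusters (GRCh38 chromosome 2, 206159351 to 206159450, score 4.64, rank 49). NDUFA7, an accessory subunit of that module, followed (chromosome 19, 8321301 to 8321400, score 4.21, rank 137). The other genes of the NADH end were lower. NDUFV2, which holds an iron-sulfur cluster beside the flavin, had 3.60, NDUFS6, a zinc-binding subunit, 3.53, and NDUFV1, which binds NADH and flavin, 3.24. NDUFS4, an accessory subunit known from Leigh syndrome, had 3.24 and NDUFA2, with a thioredoxin-like fold, 2.89. The remaining members of the module, NDUFA12 and NDUFV3, had no region.

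In the Q module, NDUFA9, at the junction of the arms, had the highest score (chromosome 12, 4649101 to 4649200, score 4.26, rank 115). The core subunits NDUFS3 and NDUFS8 had 3.52 and 3.14, while NDUFS7, the core subunit next to the ubiquinone site, and the accessory NDUFA5 and NDUFA6 had no region. The carrier NDUFAB1, the mitochondrial acyl carrier protein, had 3.86 (chromosome 16, 23596251 to 23596350, rank 283). In the proximal membrane arm NDUFS5, with paired cysteine motifs, had 3.94 (chromosome 1, 39026301 to 39026450, rank 237), NDUFA13, also known as GRIM-19, 3.73, NDUFA8 3.39 and NDUFA1 2.97. The distal arm ran lower. NDUFB9, of the LYR family that binds the acyl carrier protein, had 3.44, NDUFB1 3.32 and NDUFB4 3.31, and the lowest of all members were NDUFB8 at 2.69, NDUFB10 at 2.59 and NDUFB6 at 2.50.

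**Figure D1:**
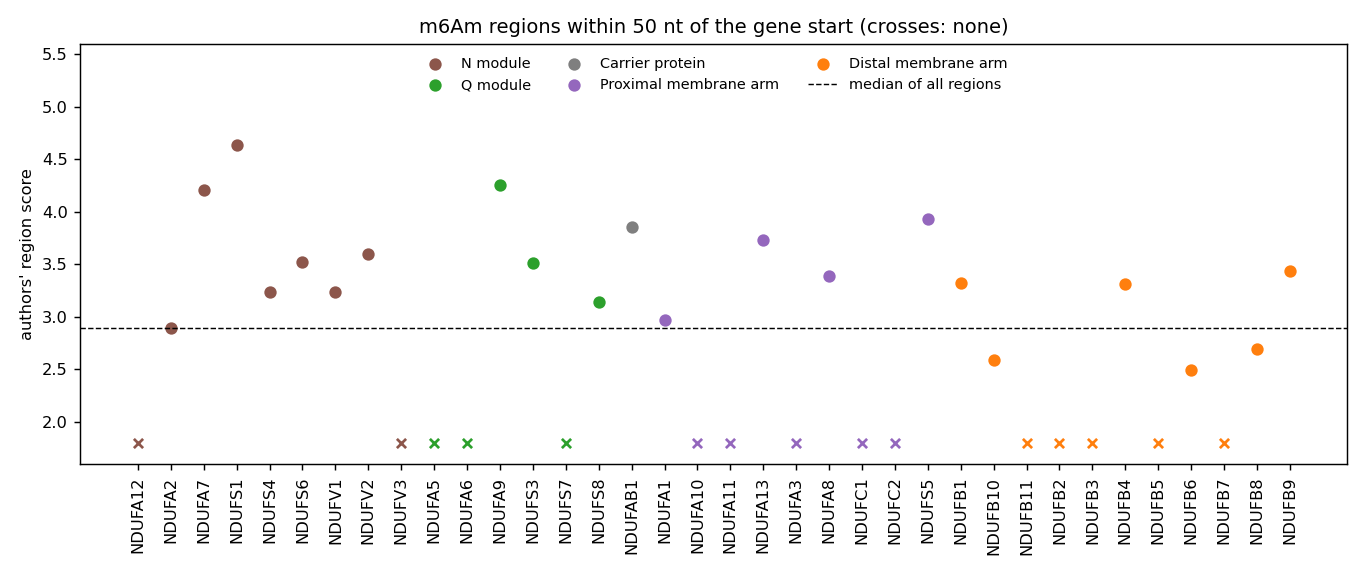
Authors' score of the m6Am region within 50 nt of the gene start, for the 36 complex I subunit genes by module. Crosses mark members with no region, and the dashed line is the median of all 2360 regions (2.90). NDUFS1 is the highest at 4.64, and the lowest scores, 2.50 to 2.69, are in the distal membrane arm.

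The start chosen moved the count by a pair of genes. With any RefSeq start of the promoter table, 23 members had a region. The added ones were NDUFB11, whose region (chromosome X, 47144601 to 47144750, score 3.70) covers the inner start shown above, and NDUFC1, whose region (chromosome 4, 139302401 to 139302450, score 2.06) lies 27 nt from an inner start. NDUFB5 and NDUFC2 have no strand in the tables used, and neither end of their spans had a region. Of the 22 member starts with a region 12 began with A (54.5%), against 57.7% of the 1836 such starts of protein-coding genes. Of the 17 member starts without a region 3 began with A (17.6%), against 49.5% of 20363. The letters CA across the start stood at 8 of the 22 starts with a region (36.4%) and at 1 of the 17 without (5.88%), against 43.2% and 35.4% over protein-coding genes. The regions of NDUFAB1 and NDUFB11 cover annotated starts that begin with G, as the stretches above show. The annotated base need not be the first base of the transcripts that were read, so these shares describe the annotation.

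Some of these starts lie near the start of a neighbour that runs the other way. An m6Am region on the opposite strand lay within 500 nt of the start in 3 of the 21 members with a region (14.3%), against 2.92% of protein-coding genes with a region. The opposite regions lay at the starts of EEF1B2 beside NDUFS1 (score 2.95), of IK beside NDUFA2 (2.73) and of CPSF2 beside NDUFB1 (2.77). In each pair the NDUF gene had the higher score. NDUFB11, counted here as without a region at its gene start, also had an opposite region, at the start of RBM10 (2.32). The motif of NRF1, a regulator of respiratory genes, was searched as GCGCA, any base and GCGC, on both strands from 250 bases before to 50 after each start. It was in 6 of 32 members with a promoter entry (18.8%), against 9.67% of protein-coding genes. The letters CCGGAAG, a core of the GABPA site, were in 5 of 32 (15.6%), against 16.5%. Matches are letters only and do not show binding.

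The authors' efficiency table gives a start class for the 10 members it lists. In that table, as the authors deposited it, 9 of the 10 were classed as m6Am (90%), against 54.4% of all 765 genes listed. The exception was NDUFB2, an accessory subunit of the distal arm, classed as A, which also had no region near its start. Of complexes II to V 12 of 18 listed genes were classed as m6Am (66.7%). All 9 members of the m6Am class had a region within 50 nt of their gene start or, in NDUFB11, of an inner start. In this class NDUFA1, NDUFA2, NDUFB10, NDUFB11 and NDUFS8 have a RefSeq start that begins with G, and NDUFA8 and NDUFV1 one with A. The authors' windows for those with G are centred 11, -8, 2, 774 and -53 nt from the RefSeq gene start. The authors' starts and RefSeq's are thus not the same bases. Class and regions are both calls of the authors in this series, so their match may not be separate evidence.

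The input libraries address whether the level of these transcripts depends on PCIF1. All 10 members had a higher fitted level in KO, but the shift was small and rested on WT replicate 1. Of the 10, edgeR's quasi-likelihood test called 0 after adjustment and 0 at an unadjusted p under 0.05, and DESeq2 called 0. Over all 14629 genes tested by edgeR, 0.0342% were called after adjustment and 9.3% at the unadjusted threshold. DESeq2 called 0.0942% of the 15930 genes to which it gave an adjusted p. The median log2 fold change, KO over WT, was 0.10 over the members and -0.02 over all genes, and 47.0% of all genes were higher. The 10 members were tied to counts through the authors' short list, whereas all genes here include many outside it. The input median of the listed genes alone is not given here. Levels are given as CPM with TMM factors, in KO replicates 1 to 3 and then WT replicates 1 and 2, and are compared within a gene only. In bulk RNA, fewer cells of a kind and less RNA per cell cannot be told apart.

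At the NADH end, NDUFV1 had 353, 365 and 403 CPM in KO, against 311 and 388 CPM in WT. NDUFA2 had 85.9, 97.2 and 97.9 CPM in KO, against 71.5 and 95.8 CPM in WT. For both, WT replicate 1 was below every other library, and KO and WT replicate 2 overlapped. The log2 fold change was 0.10 for NDUFV1 (SE 0.11, edgeR adjusted p = 0.798) and 0.17 for NDUFA2 (SE 0.14, edgeR adjusted p = 0.729). NDUFS8, a core subunit of the Q module, had 221, 228 and 230.1 CPM in KO, against 184 and 225 CPM in WT. Its WT replicate 2 fell among the KO values, and its log2 fold change was 0.15 (SE 0.10, edgeR adjusted p = 0.647).

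In the proximal membrane arm, NDUFS5 had 71.2, 76.7 and 86.0 CPM in KO, against 52.9 and 75.3 CPM in WT. It had the largest log2 fold change of the 10, at 0.29 (SE 0.16, edgeR adjusted p = 0.586), yet 1 KO library lay below WT replicate 2. NDUFA1, a small subunit with a membrane helix, had 98.3, 101 and 119 CPM in KO, against 77.5 and 116 CPM in WT, a log2 fold change of 0.14 (SE 0.16, edgeR adjusted p = 0.826). NDUFA8 had 90.6, 85.7 and 102.5 CPM in KO, against 84.7 and 92.2 CPM in WT, a log2 fold change of 0.08 (SE 0.13, edgeR adjusted p = 0.884). In NDUFA8 a pair of KO libraries lay between the WT libraries, 1 of them close to WT replicate 1.

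The distal membrane arm held the 3 smallest fold changes. NDUFB2 had 122, 125 and 123 CPM in KO, against 109 and 138 CPM in WT, with a log2 fold change of 0.01 (SE 0.12, edgeR adjusted p = 0.990). Its KO libraries lay between the WT ones. NDUFB9 had 134, 132 and 148 CPM in KO, against 116 and 143 CPM in WT (log2 fold change 0.09, SE 0.12, edgeR adjusted p = 0.837). NDUFB10 had 175, 173 and 192 CPM in KO, against 172 and 179.6 CPM in WT (log2 fold change 0.04, SE 0.10, edgeR adjusted p = 0.929). NDUFB11 had 165, 163 and 186 CPM in KO, against 151 and 181 CPM in WT (log2 fold change 0.06, SE 0.11, edgeR adjusted p = 0.903). All 3 had 1 KO library above both WT libraries and 2 between them. In no member were all KO libraries above, or all below, both WT libraries, where 9.85% and 14.3% of all genes were.

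**Figure D2:**
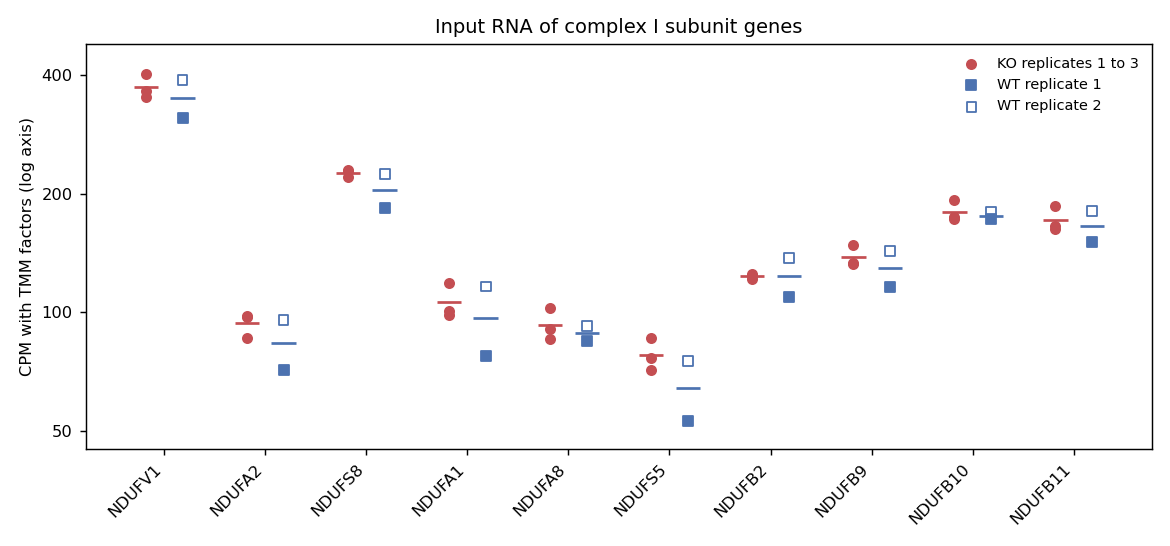
Input RNA of the 10 members with counts, as CPM with TMM factors on a log axis, with KO replicates 1 to 3 as circles left of WT replicates 1 and 2 as squares and a line at each group's mean. WT replicate 1 lies below WT replicate 2 in all 10 genes, as in NDUFS5 with 52.9 against 75.3 CPM.

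Set against the WT libraries one at a time, the members gave opposite pictures. Against WT replicate 1 the mean KO level was higher in 10 of 10 members, with a median log2 difference of 0.25, while 47.1% of all genes were higher. Against WT replicate 2 it was higher in 4 of 10, with a median of -0.05, and again 47.1% of all genes were higher. The WT libraries also differed from each other: WT replicate 2 was above WT replicate 1 in 10 of 10 members, with a median log2 difference of 0.31, against 0.01 over all genes. Genes of complexes II to V had medians of 0.22 against WT replicate 1 (16 of 19 higher) and 0.00 against WT replicate 2 (10 of 19 higher).

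Leaving out a WT library changed the calls. With WT replicate 1 alone as the control, edgeR's test called 5 of the 10 members higher in KO, where 12.4% of all genes were called. They were NDUFS5 (log2 fold change 0.58, edgeR adjusted p = 0.00547), NDUFA1 (0.47, 0.0120), NDUFS8 (0.32, 0.0296), NDUFV1 (0.29, 0.0335) and NDUFA2 (0.41, 0.0446). With WT replicate 2 alone, edgeR's test called 0 of the 10, where 0.35% of all genes were called, and the log2 fold changes were -0.12 in NDUFA1, -0.14 in NDUFB2 and -0.04 in NDUFV1. In both fits the lone WT library is assumed to vary as the KO libraries do.

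Of the other lists, complexes II to V had 16 of 19 genes higher in KO (median 0.12), and edgeR's test called 0 of these 19 (3 higher and 1 lower at an unadjusted p under 0.05; 0 by DESeq2). With WT replicate 1 alone as the control 17 of the 19 were higher, with a median of 0.25, so the shift was not confined to complex I. The assembly factors, the mitochondrially encoded subunits and the regulators of mitochondrial biogenesis have no Ensembl identifier in the tables used, so their counts are not analysed here.

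The fragment libraries address whether ribosome occupancy of these transcripts changed. Of the 10 listed members, edgeR's quasi-likelihood test called 0 after adjustment and 0 at an unadjusted p under 0.05, and DESeq2 called 0. Over the 785 listed genes, 0% were called by either tool, and 3.82% at the unadjusted threshold by edgeR. The median log2 fold change was 0.15 over the members and 0.00 over all listed genes, with 6 members higher and 4 lower in KO. CPM here is relative to the total of the listed genes, and member counts were as low as 6 in KO and 10 in WT.

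NDUFA2 showed the widest difference. It had 265, 144 and 286 CPM in KO (34, 6 and 17 counts), against 537 and 469 CPM in WT (10 and 29 counts). All KO libraries were below both WT libraries, which held for 10.4% of all listed genes. The log2 fold change was -1.04 (SE 0.60, edgeR adjusted p = 0.915). NDUFA2 shares its span with TMCO6, and the use of strand in counting is not stated. NDUFS5 had 857, 1030.4 and 706 CPM in KO, against 806 and 1279 CPM in WT, with a log2 fold change of -0.34 (SE 0.31, edgeR adjusted p = 0.932). NDUFA8 had 592, 335 and 403 CPM in KO, against 752 and 469 CPM in WT, with a log2 fold change of -0.31 (SE 0.40, edgeR adjusted p = 0.953). In NDUFS5 and NDUFA8 the groups overlapped.

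On the higher side stood NDUFB11, NDUFS8 and NDUFB10. NDUFB11, an accessory subunit of the distal arm encoded on the X chromosome, had 701, 479 and 840.4 CPM in KO, against 537 and 469 CPM in WT (log2 fold change 0.47, SE 0.34, edgeR adjusted p = 0.915). NDUFS8 had 615, 1006 and 656 CPM in KO, against 537 and 615 CPM in WT (log2 fold change 0.33, SE 0.33, edgeR adjusted p = 0.932). NDUFB10, with paired cysteine motifs, had 911, 1438 and 908 CPM in KO, against 860.0 and 842 CPM in WT (log2 fold change 0.33, SE 0.32, edgeR adjusted p = 0.932). In NDUFS8 and NDUFB10 all KO libraries were above both WT libraries, which held for 10.6% of all listed genes, though in NDUFS8 1 KO library and WT replicate 2 differed by less than 1 CPM.

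The other 4 members had wide spreads within a group. NDUFA1 had 1495, 1749 and 1899 CPM in KO, against 1881 and 1392 CPM in WT. NDUFV1 had 522, 359 and 740 CPM in KO, against 591 and 405 CPM in WT. NDUFB2 had 568, 239.6 and 975 CPM in KO, against 967 and 469 CPM in WT. In each of these the KO and WT values overlapped. NDUFB9 had 343, 479 and 269 CPM in KO, against 537 and 178 CPM in WT, so that its WT libraries enclosed all KO libraries. The log2 fold changes of these 4 were between -0.10 and 0.25.

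**Figure D3:**
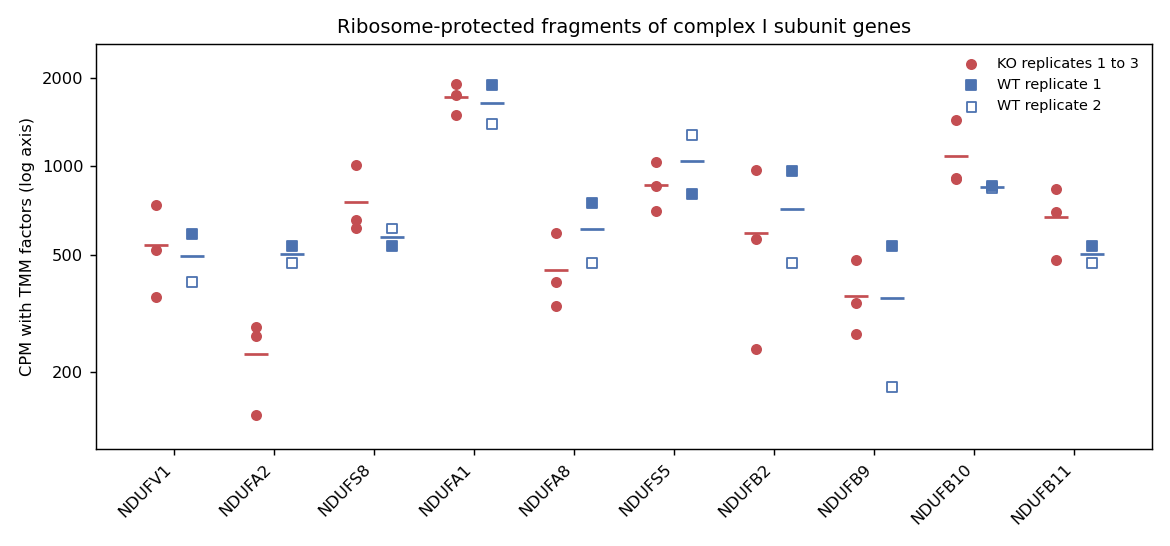
Ribosome-protected fragments of the 10 members, as CPM relative to the listed genes with TMM factors on a log axis, with KO replicates 1 to 3 as circles left of WT replicates 1 and 2 as squares and a line at each group's mean. NDUFA2 has all KO libraries (144 to 286 CPM) below both WT libraries (469 and 537 CPM); in NDUFB9 the WT libraries enclose the KO ones.

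Translational efficiency, the level of fragments relative to input, was tested in a single model of 10 libraries, as the change with genotype of the fragment level beyond that of the input. EdgeR's quasi-likelihood test called 0 of the 10 members after adjustment, and DESeq2 called 0. At an unadjusted p under 0.05 edgeR called NDUFA2 alone, as lower. Over the 785 genes, 0% were called by edgeR, 6.75% at the unadjusted threshold, and 0.255% by DESeq2. NDUFA2 had a log2 fold change of -1.15 (SE 0.41, edgeR adjusted p = 0.575). Its log2 fragments over input were 1.78, 0.85 and 1.69 in KO, against 2.99 and 2.38 in WT. All KO libraries were below both WT libraries, as in 12.6% of the 785 genes. This quantity has an arbitrary zero, since both tables have totals of their own, and serves only to compare libraries.

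NDUFS5 was next on the lower side, with log2 fragments over input of 3.63, 3.79 and 3.10 in KO, against 3.98 and 4.12 in WT. Here too all KO libraries were below both WT libraries, and the log2 fold change was -0.62 (SE 0.37, edgeR adjusted p = 0.711). These were 2 of the 10 members, and no member had all KO libraries above both WT libraries, where 8.28% of the genes did. NDUFA8 had 2.78, 2.09 and 2.08 in KO, against 3.20 and 2.44 in WT, a log2 fold change of -0.31 (SE 0.39, edgeR adjusted p = 0.852). Among the higher members, NDUFB11 had 2.14, 1.65 and 2.22 in KO, against 1.92 and 1.47 in WT, a log2 fold change of 0.46 (SE 0.36, edgeR adjusted p = 0.766). NDUFA8 and NDUFB11 overlapped between the groups. NDUFB10 (0.32, SE 0.31, edgeR adjusted p = 0.820) and NDUFB9 (0.26, SE 0.50, edgeR adjusted p = 0.931) came after NDUFB11. Without KO replicate 2 the value of NDUFB10 was 0.07, and its fragment log2 fold change 0.10, as was that of NDUFS8. The median over the 10 members was 0.10, against 0.01 over all genes, with 6 members higher and 4 lower.

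In this ratio the KO mean of NDUFA2, NDUFS5 and NDUFA8 was below, and that of NDUFS8, NDUFB10 and NDUFB11 above, each WT library taken alone. That is 6 of 10 members, against 50.6% of the 785 genes with 1 sign against both, a share near the background. For NDUFA2 the KO mean differed by -1.54 from WT replicate 1 and by -0.94 from WT replicate 2, and for NDUFS5 by -0.47 and -0.61. In NDUFA1, NDUFB2, NDUFB9 and NDUFV1 the sign changed with the WT library. NDUFB9 had -0.81 against WT replicate 1 and 0.93 against WT replicate 2, the widest gap among the members. In the authors' deposited table NDUFA2 had a log2 fold change of -1.16 (SE 0.44, adjusted p = 0.393) and NDUFS5 of -0.65 (SE 0.38, adjusted p = 0.591). The authors' deposited table called none of the members, and 0.262% of its genes with an adjusted p. DESeq2's interaction gave the authors' log2 fold change to within 0.01 in 10 of 10 members, which fixes its direction as KO over WT.

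**Figure D4:**
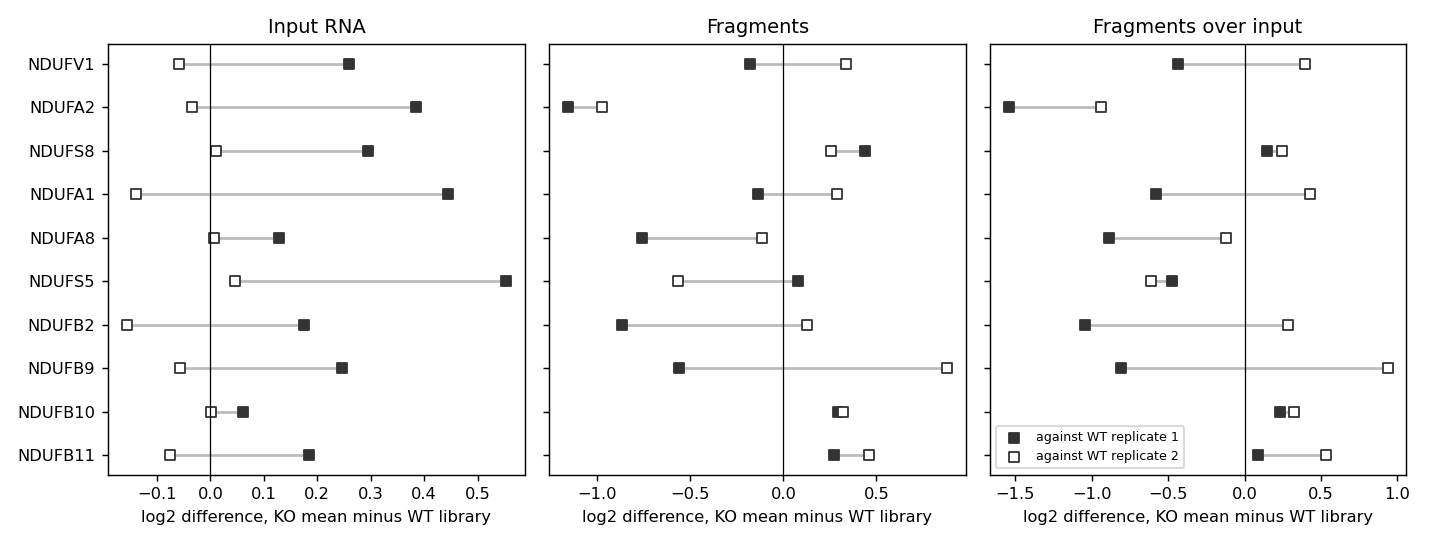
Log2 difference between the KO mean and each WT library for the 10 members, in input RNA, fragments and the ratio of fragments over input, with filled squares for WT replicate 1 and open squares for WT replicate 2. In input RNA all filled squares are above 0 and the open ones lie between -0.16 and 0.05. NDUFA2 is below 0 against both WT libraries in fragments and in the ratio.

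The miCLIP lists give the m6A sites inside the members, single DRACH positions with the number of substituted reads and of reads. Sites in the span of 1 gene only were counted, on either strand. Members held 30 and 38 sites in KO replicates 1 and 2 and 35 in WT. A site was found in 15 members in KO replicate 1 (41.7%, exact interval 25.5 to 59.2%), against 39.9% of protein-coding genes. KO replicate 2 had one in 18 members (50%, 32.9 to 67.1%), against 41.8%, and WT in 19 (52.8%, 35.5 to 69.6%), against 41.2%. The members' shares over both strands are thus near those of all protein-coding genes, which lie within their intervals. On the gene's own strand members held 27 and 32 sites in KO and 32 in WT. The shares were then 38.9%, 47.2% and 47.2% of members, against 33.7%, 35.2% and 34.8% of protein-coding genes. Genes with no strand known here count as without a site in these shares. With 1 WT library, genotype was not tested.

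Sites in members were thinly read. The median number of reads at a site was 17 and 25.5 in KO replicates 1 and 2 and 27 in WT, against 39, 45 and 33 in all protein-coding genes. No counted site had over 9 substituted reads, and 73 of the 103 entries had 2 or 3. With at least 5 substituted reads, 4 and 6 sites were left in the KO lists and 1 in WT. Of the reads at members' sites 10.8% were substituted in KO replicate 1, 8.56% in KO replicate 2 and 7.64% in WT, against 7.18%, 6.67% and 7.30% in protein-coding genes. Every listed member site had at least 2 substituted reads, so those with few reads have high percentages by selection. Differences between these percentages were not tested. In no list did a site on a member's strand lie within 50 nt of its gene start or inside its own m6Am region.

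NDUFS7 carries the last iron-sulfur cluster before ubiquinone and had no m6Am region. Over both strands it held the most sites, with 8 and 9 in KO and 7 in WT. They covered 20 positions, none in all lists. Its best-covered WT position (chromosome 19, 1394677, motif GGACT) had 4 of 46 reads substituted and was not listed in KO. Position 1393711 (GGACT) was listed in KO replicate 2 with 2 of 19 reads and in WT with 4 of 32. Position 1394396 (GGACT) was listed in both KO libraries, with 6 of 17 and 2 of 13 reads, and not in WT. On the gene's own strand were 6 and 4 of its sites in KO and 6 in WT. In KO replicate 2 NDUFB10 had more on its own strand, with 6.

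NDUFV3, a small subunit of the N module without a region, had 5 and 3 sites in KO and 1 in WT. Its position 42908965 on chromosome 21 (GAACT) was in all lists, with 6 of 122 and 6 of 134 reads in KO and 9 of 164 in WT. Another, 42903663 (GGACA), was in both KO lists alone, with 7 of 44 and 5 of 55 reads. NDUFB10 had 2 and 6 sites in KO and 4 in WT, most of them in its last 500 nt. Its position 1961735 on chromosome 16 (TGACT) was in all lists, with 3 of 63 and 4 of 102 reads in KO and 3 of 90 in WT. NDUFA1 had a single position, 119871972 on chromosome X (GGACT), 140 nt from its start, with 5 of 37 and 4 of 69 reads in KO and 3 of 63 in WT. These were the only 3 of the 86 counted positions that all lists shared.

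The best supported site in a member's span was left out of these counts. Position 140645534 on chromosome 5 (GGACT), on the strand of NDUFA2 and 249 nt from its end, also lies in the span of TMCO6. It was in all lists, with 9 of 95 and 7 of 166 reads in KO and 11 of 131 in WT. NDUFA2 thus counts among the members without a site only because its span is shared, and so does NDUFC2, whose sites also lie in NDUFC2-KCTD14.

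NDUFA10, an accessory subunit related to nucleoside kinases, had 1 and 3 sites in KO and 4 in WT, all within the long gene rather than near its end. NDUFB11 had 3 and 2 sites in KO and 1 in WT. NDUFA12 had 3 sites in WT and none in KO, all within 192 nt of the gene's end, with 2 to 4 substituted reads at 24 to 115 reads. NDUFA11 had 1 and 0 sites in KO and 3 in WT. Among single sites, NDUFV1 had the most substituted reads in KO replicate 2, with 9 of 64 at position 67611503 of chromosome 11 (GGACT), a position listed in neither other library.

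Of the 35 WT positions 7 were listed in KO replicate 1 and 6 in KO replicate 2, and 7 of the 30 KO replicate 1 positions were in KO replicate 2. Of all positions, 25 were in WT alone, 19 in KO replicate 1 alone and 28 in KO replicate 2 alone. The overlap of sites over all protein-coding genes is not given here, so these counts do not set the members apart. As 73 of the 103 entries had 2 or 3 substituted reads, a position missing from a list is not shown to be unmethylated there. The GGAC core made up 14 and 16 sites in KO and 16 in WT. The 15 members without a region held 22 and 20 sites in KO and 22 in WT, of which NDUFS7 had 7 to 9. The 21 members with a region held 8 and 18 sites in KO and 13 in WT. No site was counted in any library for 8 members, among them NDUFA9, NDUFA7 and NDUFS3, which have regions, and NDUFB2 and NDUFB3, which have none.

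**Figure D5:**
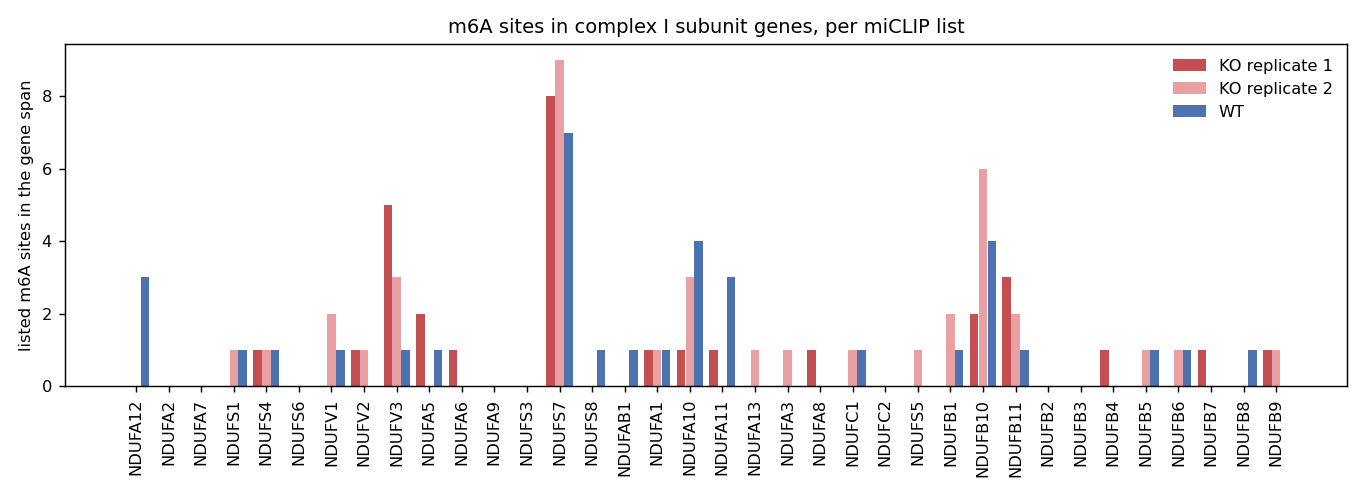
Counted m6A sites in the span of each of the 36 members, with bars for KO replicates 1 and 2 and then WT, and members in the order of their modules. With both strands counted, NDUFS7 has the most sites in every list (8, 9 and 7), and 8 members have none. On the gene's own strand NDUFB10 has more than NDUFS7 in KO replicate 2, with 6 against 4.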

How the data were processed

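Counts per versioned Ensembl gene in the input and fragment tables are those the authors deposited, not normalized, as whole numbers; every column was matched to a sample by title. The rule behind the fragment table is not stated. Per the submitters' processing notes the tools include BWA 0.7.17, STAR, bedtools and deepTools, with builds GRCh38, hg38 and mm10. Which tool aligned which library, the counter and its use of strand are not stated; per the labels' protocols the input kit is directional. The authors deposited a table of log2 fold changes of efficiency with a mean normalized signal, a test score and p-values, under DESeq2's column names per the file headers. Per the file headers, the SLAM-seq table holds a ratio of KO over WT. The region list the authors deposited has a score per region, of unstated scale.

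Members and gene lists were chosen with earlier results of these data known. The reference table has no Ensembl identifiers, so names came from the deposited class tables (1400 of 1407 identifiers matched RefSeq by accession). Of the 10 members with counts, 6 have pseudogenes named after them. NDUFB2 overlaps NDUFB2-AS1, and NDUFA2 shares its span with TMCO6, so reads could be split or misassigned.

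Counts were tested with edgeR 4.0.16 (R 4.3.3; TMM, robust quasi-likelihood, filterByExpr on the input only) over all genes, with Benjamini-Hochberg adjustment at 0.05, two-sided; DESeq2 1.42.0 was an alternative. The script was tested on simulated data. Log2 CPM used a prior count of 2. Intervals for shares are exact Clopper-Pearson at 95% and cover counting error only. Overlaps of coordinates used pandas 2.3.3, and intervals scipy 1.17.1 (Python 3.11.15). Every member could be named. Values per library were given to members called in a comparison, the 3 highest and 3 lowest by fold change, the 5 highest region scores and the 5 with most sites, and the other core subunits.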

Additional observations from a re-analysis of the deposited data

How the results depend on the processing

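In input RNA, fragments and efficiency 0 members were called under DESeq2 and with a block. The block was the replicate number in input and fragments. In efficiency it was the sample, which joined the input and fragment libraries of the same genotype and number. In input without the filter and in fragments with it, 0 were called. Same-numbered KO and WT libraries had correlated deviations of 0.16 and -0.004 in input and 0.195 and 0.209 in fragments, and input and fragments of 1 number -0.068 to 0.246. With 2 shared numbers and no label that ties them, the numbers are not taken to pair the libraries. With the block the medians were 0.04 in input, -0.06 in fragments and 0.09 in efficiency, and the sign turned in input for NDUFA8 (-0.0059), NDUFB10 (-0.019) and NDUFB11 (-0.0080), in fragments for NDUFV1 (-0.17) and in efficiency for NDUFA1 (-0.0004). The block moved NDUFB2 most in fragments, to -0.85 (edgeR unadjusted p = 0.018, adjusted p = 0.607), against -0.10 without it. NDUFA1 in efficiency also turned with DESeq2 and in the authors' deposited table (-0.012 in both). Leaving out 1 KO library gave 0 members called in input, fragments and efficiency. With any 1 library left out, WT included, fewer samples were fitted. Medians then ranged from -0.033 to 0.28 in input, -0.13 to 0.31 in fragments and -0.52 to 0.40 in efficiency. Input log2 fold changes ranged from -0.12 to 0.47 in NDUFA1, -0.022 to 0.41 in NDUFA2, -0.0006 to 0.088 in NDUFB10, -0.063 to 0.21 in NDUFB11, -0.14 to 0.20 in NDUFB2, -0.044 to 0.27 in NDUFB9, -0.044 to 0.29 in NDUFV1, 0.06 to 0.58 in NDUFS5 and 0.02 to 0.32 in NDUFS8. Fragment ones ranged from -0.14 to 0.29 in NDUFA1, -0.67 to 0.37 in NDUFB2, -0.60 to 0.99 in NDUFB9, -0.58 to 0.088 in NDUFS5, -0.11 to 0.43 in NDUFV1, -0.69 to -0.02 in NDUFA8, 0.10 to 0.47 in NDUFB10 and 0.10 to 0.50 in NDUFS8. Efficiency ones ranged from -0.58 to 0.45 in NDUFA1, -0.78 to 0.043 in NDUFA8, -0.82 to 0.58 in NDUFB2, -0.84 to 1.08 in NDUFB9, -0.011 to 0.34 in NDUFS8, -0.35 to 0.54 in NDUFV1, 0.07 to 0.48 in NDUFB10 and 0.19 to 0.67 in NDUFB11. The cause of these turns was not tested. NDUFA2 stayed lower in KO in fragments and efficiency in every one of these fits. With at least 5 substituted reads, 4 and 6 m6A sites were left in KO and 1 in WT, and with at least 10, 0 in each list. The NDUFA2 site shared with TMCO6, left out of these counts, had 11 substituted reads in WT. On the gene's own strand alone, 27 and 32 sites were left in KO and 32 in WT. Members with a region numbered 21 within 100 nt, 22 within 500 nt, 18 where the region must cover the start, and 23 with any RefSeq start, which was added after seeing the data. Depth also limits the fragment values: 3 counts are worth 170 CPM in WT replicate 1.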

Other observations

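Complex I assembly factors, which help build the enzyme without staying in it, held m6A sites in 14 and 16 of 20 genes in KO replicates 1 and 2 (70% and 80%) and in 16 in WT (80%). Complex I subunits held one in 41.7% and 50% of genes in KO and 52.8% in WT. The difference between these lists was not tested, and gene length was not matched. The core letters CCGGAAG were in 15 of 30 promoters of complexes II to V (50%), against 15.6% of complex I promoters and 16.5% of protein-coding genes. The NRF1 motif was in 9 of those 30 (30%). Among complex I members it was found in NDUFA3, NDUFA8, NDUFA9, NDUFA11, NDUFA12 and NDUFB4, of which NDUFA8, NDUFA9 and NDUFB4 have an m6Am region.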
